A study of Mus musculus with 28 samples.

Results

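The genes described here encode 6 factors of the AP-1 group: Fos, Fosb, Jun, Junb, Jund and Atf3. They were chosen by name, with earlier results of these data known. Every probe set whose single gene symbol in the platform annotation was among these names was taken. That gave 10 probe sets of 12422 that are not controls, for 6 of 8251 genes. Fos had 2 probe sets, Junb 2 and Atf3 3, while Fosb, Jun and Jund had 1 each. The letters in the Affymetrix names tell them apart here: Junb-r and Junb-i, and Atf3-f, Atf3-r and a dim further r set called Atf3-d. No probe set annotated with several genes included any of them.

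RNA from the whole brain of 28 C57BL/6J mice was measured on Affymetrix U74Av2 arrays, 1 array per mouse. Untreated mice were compared with mice taken 1 hour after a seizure brought on by nicotine injected into the abdomen, in 3 genotypes with different nicotinic receptors, the acetylcholine-gated channels through which nicotine acts. The untreated groups held 6 wild-type mice (6 to 9 weeks old), 5 alpha7 +/T mice (6 to 8 weeks) and 5 beta4 null mice (6 to 9 weeks). The seized groups held 3 wild-type (7 to 8 weeks), 5 alpha7 +/T (8 weeks) and 4 beta4 null mice (7 to 8 weeks). Both sexes were present in every group. The sample titles carry a prefix whose meaning the labels do not state. It was LT for every alpha7 +/T mouse and B4 for every beta4 null mouse, while the wild-type mice were mixed, with 3 LT and 3 B4 among the untreated and 1 LT and 2 B4 among the seized. The 3 untreated wild-type mice with the LT prefix were the 6-week ones, so in wild-type mice prefix and age cannot be told apart before seizure, and leaving out the 6-week mice leaves no untreated LT wild-type mouse. The alpha7 +/T mice are heterozygous for the L250T allele of the alpha7 subunit, and beta4 null animals have no beta4 subunit. Nicotine doses were set separately for each genotype so that seizures reached a similar score, so the effect of genotype among seized mice cannot be told apart from that of dose, and the labels state no amounts. No group received nicotine without a seizure. Seized and untreated mice therefore differ in nicotine, injection and handling as well as in the seizure.

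AP-1 is a dimer of basic leucine zipper proteins. Fos family proteins pair with Jun family proteins, and the pairs bind DNA at a short palindromic site. Fos, Fosb, Junb and Atf3 are known as immediate early genes, whose transcripts appear within minutes of strong neuronal firing because the kinases and factors that switch them on, such as CREB and SRF, are already in the cell. Jun is also inducible in many settings, and Jund is expressed in resting cells. Atf3 is a stress-induced relative that can pair with Jun proteins.

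The promoters of the 6 genes are shown because Fos, Fosb, Junb and Atf3 rose together after seizure and Jun and Jund did not pass the test. Each sequence is the 150 bases before the gene start listed by RefSeq (GRCm38.p6), read 5′ to 3′ on the strand of the gene. The capitals mark TGACG or its reverse complement CGTCA, the core that CREB and ATF proteins bind, and in Jun the variant TGACATCA.

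Fos, chr12:85473740-85473889, plus strand: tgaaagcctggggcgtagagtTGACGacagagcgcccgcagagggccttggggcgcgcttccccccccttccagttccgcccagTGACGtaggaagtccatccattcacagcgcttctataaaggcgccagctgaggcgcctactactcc
Fosb, chr7:19310046-19310195, minus strand: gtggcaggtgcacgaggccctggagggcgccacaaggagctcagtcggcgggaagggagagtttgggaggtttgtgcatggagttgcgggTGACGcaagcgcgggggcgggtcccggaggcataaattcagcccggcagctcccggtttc
Junb, chr8:84978749-84978898, minus strand: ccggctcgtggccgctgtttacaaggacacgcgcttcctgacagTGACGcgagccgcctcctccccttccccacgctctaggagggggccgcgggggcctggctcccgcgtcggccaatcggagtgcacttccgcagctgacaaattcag
Atf3, chr1:191183334-191183483, minus strand: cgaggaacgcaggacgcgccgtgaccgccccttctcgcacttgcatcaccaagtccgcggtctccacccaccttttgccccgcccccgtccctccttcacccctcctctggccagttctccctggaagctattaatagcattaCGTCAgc
Jun, chr4:95052223-95052372, minus strand: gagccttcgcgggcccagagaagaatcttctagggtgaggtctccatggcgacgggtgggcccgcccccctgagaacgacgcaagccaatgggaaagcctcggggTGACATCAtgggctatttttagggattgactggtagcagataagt
Jund, chr8:70697589-70697738, plus strand: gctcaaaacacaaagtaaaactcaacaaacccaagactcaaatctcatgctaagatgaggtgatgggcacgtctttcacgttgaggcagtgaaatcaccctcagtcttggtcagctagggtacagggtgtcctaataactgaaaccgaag

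The core TGACG was searched on both strands in the 250 bases before and the 50 after each start. It was present in Fos at -129 and -66, in Fosb at -60, in Junb at -106 and, as CGTCA, in Atf3 at -7, counted from the start to the first base of the match. That made 4 of 6 promoters, against 20.8% of 32851 mouse promoters of the same length. The 4 promoters with it belong to the 4 genes that rose, a grouping taken from these same data, and several other strings were searched as well. Whether the core has a part in the rise was not tested. It was absent from this window in Jun and Jund. TGACATCA, which does not overlap TGACG, was present in Jun alone among the 6, at -45, and in 3.62% of all promoters. The full palindrome TGACGTCA, which contains TGACG, was in 0 of 6 (1.79% of all), the AP-1 site TGANTCA in 0 of 6 (7.81%) and the CArG box, bound by SRF, in 0 of 6 (1.63%). TATAAA was present in Fos at -33 and in Junb at 1, the listed start itself (13.6% of all). CCAAT or its complement was present in Jun, Junb and Atf3 (37.4%). The GC content of the 300 bases lay between 58.7% (Fos) and 68.3% (Fosb) in 5 genes and was 46.7% in Jund, against a median of 52.7% over all promoters. A match here is a string of letters and not a measured binding site, the table lists 1 start per gene, and other starts and more distant sequence were not examined.

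The values are signal intensities per probe set, used here as log2, and the deposited arrays had already been scaled to a common level. A probe set was tested when it was brighter than the median of its array (log2 5.45 to 5.93) in at least 3 arrays, which kept 8 of the 10 member probe sets and 7350 of all. A probe set that passes this rule mainly through its seized mice was more likely to be tested if it rose. Atf3-f was above the median in 12 seized and 4 untreated mice, Atf3-r in 4 and 1, and Junb-i in 12 and 10. Fos was above it in 27 arrays, and Fosb, Jun, Junb-r and Jund were above it in all 28. The second Fos probe set ran from log2 0.59 to 4.83 and Atf3-d from 0.72 to 2.20, below the array median in all 28, and neither was tested. The suffixes f, r and i mark Affymetrix probe sets that share probes with related sequences, that relaxed the probe selection rules, or that hold fewer probes than usual, so the Atf3 and Junb values are less specific than the others.

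Arrays of 2 technical kinds were present. In 9 arrays the log2 ratio of the Gapdh control sets at the 3′ and 5′ ends was below 0.5, and in the other 19 it was above. The low-ratio arrays comprised 2 untreated and 3 seized alpha7 +/T mice and 2 untreated and 2 seized beta4 null mice, and 0 wild-type mice, so values are given with and without them where it matters. Mice of 6 weeks were found in the untreated groups (3 wild-type, 4 alpha7 +/T, 1 beta4 null) and in none of the seized groups. The array of seized alpha7 +/T mouse 2 also stood apart. Its mean log2 signal over 5 pituitary markers was 8.88 against 3.995 to 5.54 in the 27 others, with growth hormone (Gh) at 12.58 and prolactin (Prl) at 12.05 against at most 7.79 and 6.75 elsewhere, while Tshb was at 2.99 there and at most 5.33 elsewhere. Markers of brain cells were present as the label says. The mean log2 signal over 5 neuron markers lay between 8.62 and 10.11 in every array, and over 9 marker lists for neurons, glia, vessels, blood, choroid plexus, pituitary and meninges 0 genes passed the test over the average of genotypes. Calls in the alpha7 +/T comparisons are given beside them. The neuron mean was 8.77 in untreated and 8.94 in seized wild-type mice, 9.16 and 9.50 in alpha7 +/T mice and 9.35 and 9.52 in beta4 null mice, and its part in the differences below was not tested.

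Fos, Fosb, Junb and Atf3 were higher 1 hour after seizure, while Jun and Jund did not pass the test. Averaged over the 3 genotypes with equal weights, 4 of the 8 tested probe sets rose, 1 for each of Fos, Fosb, Junb and Atf3, where 0.327% of all probe sets did (limma, adjusted p under 0.05, called in what follows). The median log2 difference of the 8 was 1.13, and that of all 7350 was 0.012. Ordered by p over all probe sets, Fos was at place 2, Fosb at 3, Atf3-f at 5 and Junb-r at 16. Because the members were chosen with earlier results of these data known, these shares and places only describe them. In whole brain, more RNA per cell and more cells of a responding type cannot be told apart.

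**Figure D1:**
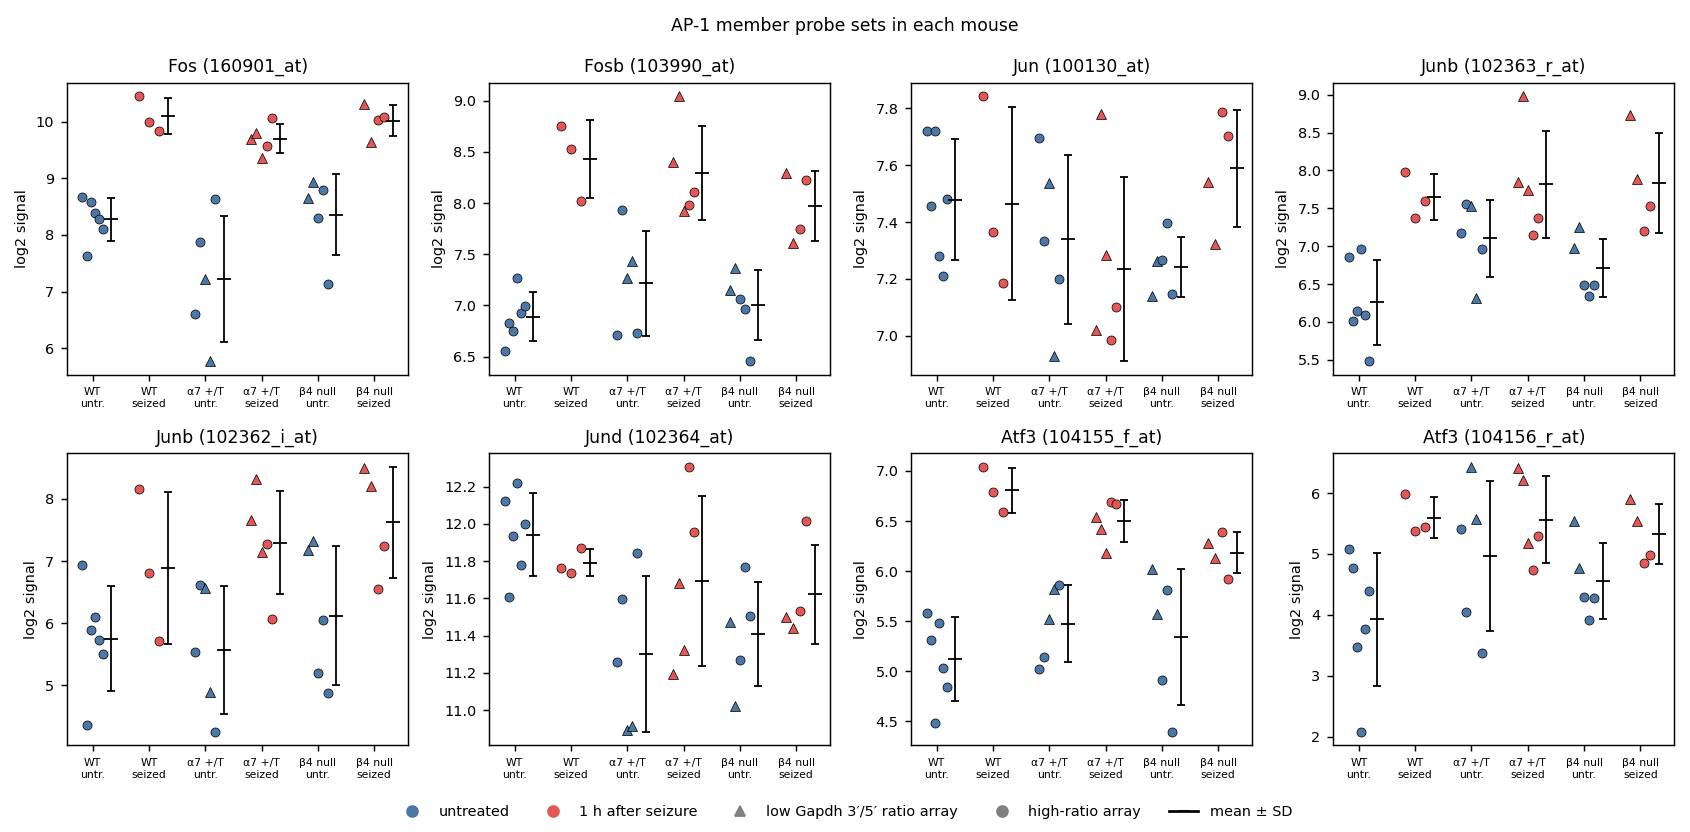
Log2 signal of the 8 tested AP-1 probe sets in each of 28 mice, by genotype and treatment. Each point is a mouse, triangles are arrays with a low Gapdh 3′/5′ ratio, and bars are the group mean ± SD; each panel has its own log2 axis, so heights are not comparable between panels. All 12 seized mice lie above all 16 untreated mice for Fos, while Jun and Jund overlap.

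Fos, the founding subunit of AP-1 and a standard marker of recently active neurons, rose 3.96-fold. In untreated wild-type mice its log2 signal ran from 7.62 to 8.67 with a median of 8.33. Untreated alpha7 +/T mice were at 6.61, 7.87, 7.23, 5.76 and 8.64, and untreated beta4 null mice at 8.65, 8.93, 8.30, 8.79 and 7.14. Alpha7 +/T mice were thus scattered and mostly low before seizure. After seizure wild-type mice were at 10.45, 10.00 and 9.84, alpha7 +/T mice at 9.70, 9.81, 9.36, 9.58 and 10.06, and beta4 null mice at 10.31, 9.65, 10.03 and 10.08. Every seized mouse lay above every untreated mouse of any genotype. Only 2 of 7350 probe sets (0.0272%) separated all 12 from all 16 in this way, Fos and Nr4a1, an orphan nuclear receptor of the early response (Nr4a1 is named here after its values were seen). The difference averaged over genotypes was log2 1.99 ± 0.22 (SE, limma adjusted p = 5.19e-06), and it was called in all 13 alternative fits, from 1.54 in mice of 7 weeks or older to 2.02, and with each of the 28 mice left out (1.86 to 2.10). In order, group means were 10.10 ± 0.32 (SD, n = 3) in seized wild-type, 10.02 ± 0.27 (n = 4) in seized beta4 null, 9.70 ± 0.26 (n = 5) in seized alpha7 +/T, 8.36 ± 0.72 (n = 5) in untreated beta4 null, 8.27 ± 0.38 (n = 6) in untreated wild-type and 7.22 ± 1.11 (n = 5) in untreated alpha7 +/T mice. Among neighbours in this order only seized beta4 null and seized alpha7 +/T mice, and seized alpha7 +/T and untreated beta4 null mice, differed by more than the larger of their SDs.

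Fosb, whose stable splice form accumulates with repeated stimulation, rose 2.29-fold. Untreated wild-type mice ran from 6.56 to 7.27 with a median of 6.88 on the log2 scale. Untreated alpha7 +/T mice were at 6.71, 7.93, 7.27, 7.44 and 6.73, and untreated beta4 null mice at 7.15, 7.37, 7.07, 6.97 and 6.45. Seized wild-type mice were at 8.75, 8.53 and 8.02, seized alpha7 +/T mice at 8.40, 9.05, 7.92, 7.99 and 8.11, and seized beta4 null mice at 8.30, 7.61, 7.75 and 8.23. Groups did not overlap in wild-type and beta4 null mice, and in alpha7 +/T mice 1 untreated animal (7.93) reached the lowest seized one (7.92). The average difference was 1.20 ± 0.14 (SE, limma adjusted p = 1.51e-05), called in all 13 alternative fits (1.17 to 1.31) and with any mouse left out (1.13 to 1.27). Among neighbouring group means only seized beta4 null (7.97 ± 0.34, SD, n = 4) and untreated alpha7 +/T mice (7.21 ± 0.51, n = 5) differed by more than the larger SD.

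Junb, a Jun family subunit that pairs with Fos proteins and can restrain Jun, rose 2.11-fold by its probe set Junb-r. The log2 signal ran from 5.48 to 6.97 with a median of 6.12 in untreated wild-type mice. It was 7.17, 7.56, 7.53, 6.32 and 6.96 in untreated alpha7 +/T mice and 6.98, 7.25, 6.49, 6.35 and 6.49 in untreated beta4 null mice. After seizure it was 7.98, 7.37 and 7.60 in wild-type, 7.84, 8.98, 7.74, 7.15 and 7.37 in alpha7 +/T and 8.73, 7.89, 7.20 and 7.53 in beta4 null mice. Groups were apart in wild-type mice and overlapped in both mutants. The average difference was 1.07 ± 0.20 (SE, limma adjusted p = 0.0050). It was not called in the 19 high-ratio arrays alone (0.78, limma adjusted p = 0.094) or in mice of 7 weeks or older (1.17, limma adjusted p = 0.14). The other probe set, Junb-i, ran from 4.25 to 7.33 in untreated and from 5.71 to 8.50 in seized mice, with a difference of 1.46 ± 0.35 that was not called (limma adjusted p = 0.058), and 11 of 12 seized mice lay above their untreated mean. It was called in 4 of 13 alternative fits.

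The array with pituitary transcripts, seized alpha7 +/T mouse 2, held the highest signal of all 28 arrays for Fosb (9.05) and for Junb-r (8.98). Without it the average difference was 1.13 for Fosb and 0.98 for Junb-r (limma adjusted p = 1.5e-05 and 0.0058), and in alpha7 +/T mice 0.89 and 0.42 in place of 1.08 and 0.71. For Fos and Atf3-f the average was 1.98 and 1.19 without it.

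Atf3, a repressor or activator of the ATF/CREB family induced by stress and injury, rose 2.27-fold by its probe set Atf3-f. Untreated wild-type mice ran from 4.48 to 5.58 with a median of 5.17. Untreated alpha7 +/T mice were at 5.03, 5.14, 5.52, 5.83 and 5.86, and untreated beta4 null mice at 6.03, 5.57, 4.91, 5.81 and 4.39. Seized mice were at 7.04, 6.79 and 6.59 (wild-type), 6.54, 6.42, 6.18, 6.69 and 6.67 (alpha7 +/T) and 6.28, 6.13, 6.39 and 5.92 (beta4 null). Only in beta4 null mice did the groups overlap, where the lowest seized mouse fell below 1 untreated mouse. The average difference was 1.18 ± 0.16 (SE, limma adjusted p = 9.33e-05), called in all 13 alternative fits (1.11 to 1.38) and with any mouse left out (1.10 to 1.24). The seized means were 6.81 ± 0.23 (SD, n = 3) in wild-type, 6.50 ± 0.21 (n = 5) in alpha7 +/T and 6.18 ± 0.20 (n = 4) in beta4 null mice, and each step in this order was larger than the larger SD. Atf3-r, which was above the array median in 5 arrays, differed by 1.01 ± 0.33 (limma adjusted p = 0.29) and was not called, with 11 of 12 seized mice above their untreated mean. Of those 5 arrays 4 were of seized mice, so Atf3-r was tested only through its seized mice. The count of 11 is therefore no support for a rise.

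Jun, the subunit that gives the family its name, did not pass the test. Untreated wild-type mice ran from 7.21 to 7.72 (median 7.47). Untreated alpha7 +/T mice were at 7.70, 7.33, 7.54, 6.93 and 7.20, and untreated beta4 null mice at 7.14, 7.26, 7.27, 7.40 and 7.15. After seizure wild-type mice were at 7.84, 7.37 and 7.19, alpha7 +/T mice at 7.02, 7.78, 7.28, 6.99 and 7.10, and beta4 null mice at 7.54, 7.32, 7.79 and 7.70. The groups overlapped in every genotype, and 6 of 12 seized mice lay above their untreated mean. The average difference was 0.076 ± 0.10 (SE, limma adjusted p = 0.90), with a 95% interval from -0.13 to 0.28, so a rise of the size seen for Fosb lies outside it. No neighbours in the order of the 6 group means differed by more than the larger SD.

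Jund, which is transcribed in resting cells, did not pass either. It ran from 11.60 to 12.22 in untreated wild-type mice (median 11.97) and stood at 11.77, 11.74 and 11.87 after seizure. Alpha7 +/T mice were at 11.26, 11.59, 10.89, 10.91 and 11.85 before and 11.19, 11.68, 11.32, 12.31 and 11.96 after seizure, and beta4 null mice at 11.47, 11.02, 11.27, 11.77 and 11.51 before and 11.50, 11.44, 11.53 and 12.01 after. Seized mice lay above their untreated mean in 0 of 3 wild-type, 4 of 5 alpha7 +/T and 4 of 4 beta4 null animals. The average difference was 0.15 ± 0.12 (SE, limma adjusted p = 0.78) with a 95% interval from -0.098 to 0.40, and it was -0.044 in mice of 7 weeks or older.

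**Figure D2:**
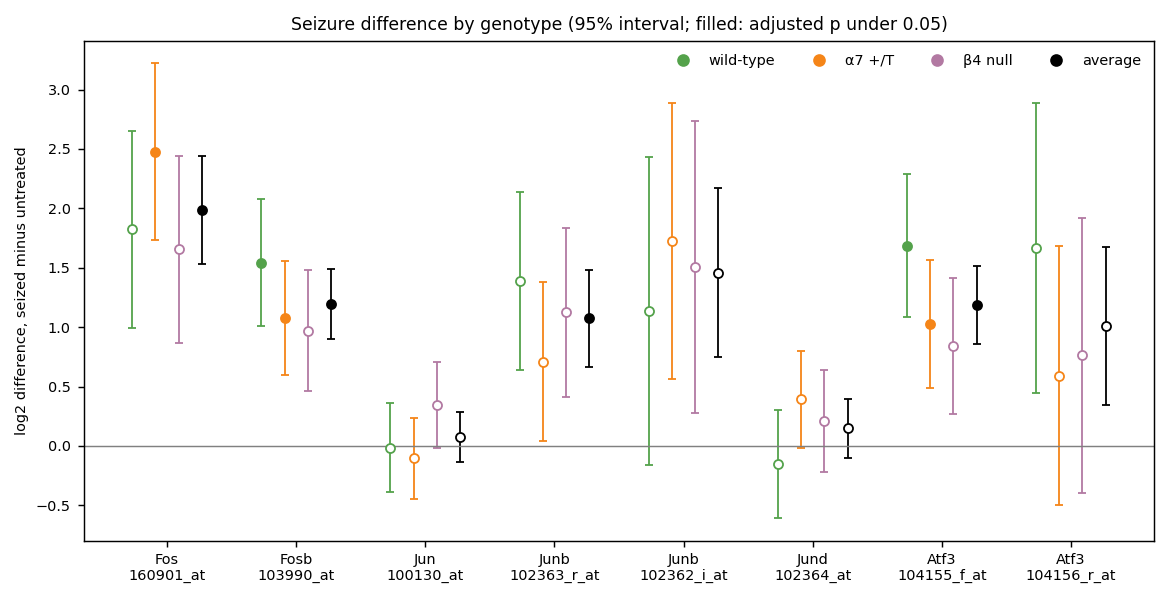
Log2 difference between seized and untreated mice for the 8 tested AP-1 probe sets, in each genotype and averaged over genotypes, with 95% intervals from limma; filled points have an adjusted p under 0.05. The averages of Fos, Fosb, Junb-r and Atf3-f are filled, and the intervals of Jun and Jund cross 0 in every genotype.

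Within each genotype the same 4 genes had positive differences, and how many were called varied. A positive sign was not particular to them. In beta4 null mice all 8 tested probe sets had it, and in alpha7 +/T mice Jund stood at 0.39 ± 0.20, not called. In wild-type mice 2 of 8 probe sets rose, against 0.0544% of all. These were Fosb, at 1.54 ± 0.26 (2.92-fold), and Atf3-f, at 1.69 ± 0.29 (3.22-fold), each with a limma adjusted p of 0.015 and 3 of 3 seized mice above the untreated mean. Fos stood at 1.82 ± 0.40 (limma adjusted p = 0.17) and Junb-r at 1.39 ± 0.36 (limma adjusted p = 0.45), also higher in 3 of 3 mice. Every seized wild-type mouse exceeded every untreated one for 5 of the 8 tested member probe sets, where 2.53% of all probe sets were so separated. These were Fos, Fosb, Junb-r, Atf3-f and Atf3-r. Atf3-r was above the array median in 4 seized and 1 untreated mice, so it was tested only through its seized mice. Its separation is therefore no support for a rise. Both calls ended without seized wild-type mouse 1 or 2 (0 called) and when the 6-week mice were left out (0 called), where Fosb was at 1.37 and Atf3 at 1.69. Both were kept with the title prefix as a covariate. Within the B4 prefix Fosb was at 1.21 and Atf3-f at 1.57, and within LT, with 1 seized wild-type mouse, at 2.04 and 1.92, with 0 called in either. In the high-ratio arrays alone, which include all wild-type mice, 4 were called, Fos and Junb-r being the additional ones.

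In alpha7 +/T mice 3 of 8 rose, against 1.71% of all. Fos was higher by 2.48 ± 0.36 (5.57-fold, limma adjusted p = 0.00042), Fosb by 1.08 ± 0.23 (2.11-fold, limma adjusted p = 0.012) and Atf3-f by 1.03 ± 0.26 (2.04-fold, limma adjusted p = 0.031), each in 5 of 5 mice. Junb stood at 0.71 ± 0.33 and 1.73 ± 0.57 by its probe sets Junb-r and Junb-i (limma adjusted p = 0.24 and 0.086). Groups did not overlap for Fos and Atf3-f, where 1.63% of all probe sets were separated. In the high-ratio arrays alone 0 were called, with Fos at 2.11 (limma adjusted p = 0.057), Fosb at 0.92, Atf3-f at 1.34 and Junb-r at 0.031. With age as a covariate Fos alone was called (2.22), and without the 6-week mice, which left 1 untreated alpha7 +/T mouse, Fos stood at 1.06, Fosb at 1.56 and Atf3 at 0.64 with 0 called. In a fit of LT mice alone, where the differences are the same, Fos was called (limma adjusted p = 0.017) and Fosb and Atf3-f were not (limma adjusted p = 0.10 and 0.12). In the same comparison 1 of 4 endothelial markers fell, Cldn5, a tight junction protein (-1.26 ± 0.29, limma adjusted p = 0.018; named after its values were seen). The mean log2 signal over 5 endothelial markers ran from 6.19 to 6.59 in untreated and from 5.37 to 6.53 in seized alpha7 +/T mice. Its part in the results for the AP-1 genes was not tested.

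In beta4 null mice 0 of 8 were called by limma, against 0.0136% of all, and 5 had an unadjusted p under 0.05, against 1.74% of all. Fos stood at 1.65 ± 0.38 (limma adjusted p = 0.31), Fosb at 0.97 ± 0.25 (limma adjusted p = 0.53), Junb-r at 1.12 ± 0.35 and Atf3-f at 0.84 ± 0.28 (both limma adjusted p = 1.00), each higher in 4 of 4 mice. Groups did not overlap for Fos and Fosb, where 0.422% of all probe sets were separated. Jun stood at 0.35 ± 0.17 and was above the untreated mean in 4 of 4 mice, against 1 of 3 in wild-type and 1 of 5 in alpha7 +/T mice. It did not pass (limma adjusted p = 1.00).

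The interaction term tested whether the genotypes responded unequally. None of the 8 probe sets passed (0.0272% of all did), with limma adjusted p from 0.75 to 0.99, and 0 had an unadjusted p under 0.05, against 7.66% of all. The response of Fos was 0.66 ± 0.54 larger in alpha7 +/T than in wild-type mice (95% interval -0.46 to 1.77), and that of Atf3-f was -0.85 ± 0.40 relative to wild-type in beta4 null mice (95% interval -1.68 to -0.019, limma adjusted p = 1.00). The sizes in the 3 genotypes are thus given side by side and not as a ranking. Intervals of this width leave differences of a log2 unit or more within reach for Fos, Fosb, Junb, Jund and Atf3.

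Before seizure, Fos and Jund were called lower in alpha7 +/T than in wild-type mice, and neither call held in every alternative. Fos was lower by 2.07-fold (log2 -1.05 ± 0.35, limma adjusted p = 0.040) and Jund by 1.56-fold (-0.64 ± 0.19, limma adjusted p = 0.029), so 2 of 8 member probe sets were called lower in a comparison where 8.29% of all probe sets were. Of the others, Junb-r stood at 0.85 ± 0.31 (limma adjusted p = 0.059), Atf3-r at 1.04 ± 0.51, Fosb at 0.33, Atf3-f at 0.35, Jun at -0.14 and Junb-i at -0.18. The 4 untreated alpha7 +/T mice of 6 weeks were at 5.76 to 7.87 for Fos and 10.89 to 11.59 for Jund, and the animal of 8 weeks was at 8.64 and 11.85. Both calls were lost with age as a covariate (Fos -0.95 and Jund -0.61, limma adjusted p = 0.078 and 0.052) and in the high-ratio arrays (-0.57 and -0.38), and in mice of 7 weeks or older Fos stood at 0.38 and Jund at -0.15. Leaving out single mice ended the Fos call in 8 of 28 cases and the Jund call in 4. Both calls ended without untreated alpha7 +/T mouse 3 or 4 and without untreated wild-type mouse 3 or 4, and the Fos call also without wild-type mouse 1, 5 or 6 or alpha7 +/T mouse 1. Over all 28 cases Fos ran from -1.41 to -0.69 and Jund from -0.78 to -0.54. With the title prefix as a covariate Fos stood at -1.15 and Jund at -0.596 (limma adjusted p = 0.096 and 0.11), and among LT mice alone at -1.07 and -0.59 (limma adjusted p = 0.25 and 0.27), neither called. Markers of other cells also differed in this comparison, where 16% of all probe sets were called in either direction. Mag, a myelin protein of oligodendrocytes, was higher by 1.53 ± 0.46 (limma adjusted p = 0.029), 1 of 4 oligodendrocyte markers. Dcn, a matrix protein of the meninges, was lower (-0.64 ± 0.16, limma adjusted p = 0.017), 1 of 5 meningeal markers. Both are named after their values were seen. The mean log2 signal over 4 oligodendrocyte markers ran from 8.97 to 10.10 in wild-type and from 9.38 to 10.55 in alpha7 +/T mice, and over 5 meningeal markers from 7.87 to 8.06 and from 7.67 to 8.34. All 3 tested choroid plexus markers had an unadjusted p under 0.05, with 0 called and means over 3 markers from 6.70 to 7.66 and from 6.83 to 7.51. The parts of age, array kind, prefix and other cells in these differences were not tested beyond these fits.

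Pooled over genotypes, Jund differed with array kind in both treatments. No wild-type array was low-ratio, so array kind and genotype cannot be told apart in these pooled means. Among untreated mice Jund averaged 11.08 ± 0.27 (SD, n = 4) in low-ratio and 11.74 ± 0.31 (n = 12) in high-ratio arrays, and among seized mice 11.43 ± 0.18 (n = 5) and 11.88 ± 0.25 (n = 7). Within untreated alpha7 +/T mice Jund was at 10.89 and 10.91 (low-ratio) and 11.26, 11.59 and 11.85 (high-ratio). Seized alpha7 +/T mice were at 11.19, 11.68 and 11.32 (low-ratio) and 12.31 and 11.96 (high-ratio). Seized beta4 null mice were at 11.50 and 11.44 (low-ratio) and 11.53 and 12.01 (high-ratio). The kinds overlapped for Jund in untreated beta4 null mice, at 11.47 and 11.02 (low-ratio) and 11.27, 11.77 and 11.51 (high-ratio). Junb-r lay the other way when pooled, at 7.02 ± 0.52 and 6.55 ± 0.58 before and 8.24 ± 0.57 and 7.46 ± 0.28 after seizure. In untreated alpha7 +/T mice alone the kinds overlapped for Junb-r, at 7.53 and 6.32 (low-ratio) and 7.17, 7.56 and 6.96 (high-ratio). Untreated beta4 null mice were at 6.98 and 7.25 (low-ratio) and 6.49, 6.35 and 6.49 (high-ratio). After seizure Junb-r was at 7.84, 8.98 and 7.74 (low-ratio) and 7.15 and 7.37 (high-ratio) in alpha7 +/T mice. Seized beta4 null mice were at 8.73 and 7.89 (low-ratio) and 7.20 and 7.53 (high-ratio). In both seized mutant groups every low-ratio array was thus above every high-ratio array for Junb-r. For Fos the kinds averaged 7.64 ± 1.46 and 8.08 ± 0.67 before and 9.76 ± 0.35 and 10.01 ± 0.26 after. Before seizure Fos in alpha7 +/T mice was at 7.23 and 5.76 (low-ratio) and 6.61, 7.87 and 8.64 (high-ratio). In beta4 null mice it was at 8.65 and 8.93 (low-ratio) and 8.30, 8.79 and 7.14 (high-ratio). With array kind as a covariate the average seizure difference was 2.005 for Fos, 1.17 for Fosb, 1.02 for Junb-r and 1.16 for Atf3-f, all called. Within high-ratio arrays it was 1.97, 1.21, 0.78 and 1.38, with Junb not called.

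Other comparisons between genotypes gave no call among the members. In untreated beta4 null against wild-type mice 0 of 8 were called (0.0136% of all) and 1 had an unadjusted p under 0.05 (12.9% of all). Jund was at -0.53 ± 0.19, Junb-r at 0.45 ± 0.31 and Atf3-r at 0.63 ± 0.51 (limma adjusted p = 0.36, 0.50 and 0.55). Seized alpha7 +/T against seized wild-type mice had 0 of 8 called, where 0% of all were, and 0 at an unadjusted p under 0.05, where 12% of all were. The differences ran from -0.40 ± 0.42 for Fos to 0.41 ± 0.65 for Junb-i. Seized beta4 null against seized wild-type mice also had 0 of 8 called (0.0136% of all) and 0 at an unadjusted p under 0.05 (4.42% of all), from -0.63 ± 0.32 for Atf3-f to 0.74 ± 0.68 for Junb-i.

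**Figure D3:**
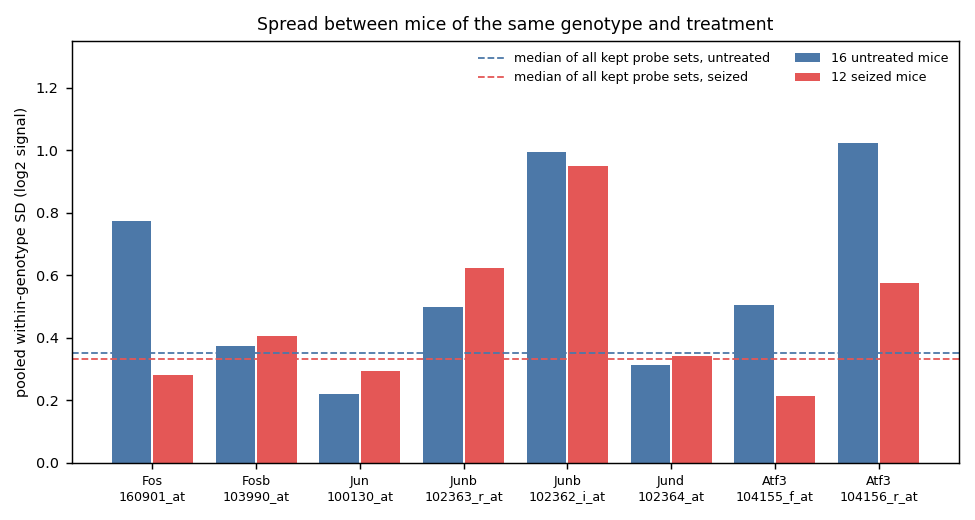
Pooled SD of log2 signal between mice of the same genotype, for untreated (16 mice) and seized (12 mice) animals, by AP-1 probe set; dashed lines are the medians over all 7350 tested probe sets. Fos stands at 0.77 before and 0.28 after seizure, and Jun at 0.22 and 0.29.

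Pooled over genotypes, mice varied more in Fos before than after seizure, mainly through the mutants. The SD between mice of the same genotype, pooled over genotypes, was log2 0.77 in untreated mice, larger than that of 90.1% of all tested probe sets, and 0.28 in seized mice, larger than 36.5%. Atf3-f went from 0.50 (76.2%) to 0.21 (18.2%) and Atf3-r from 1.02 to 0.58. Fosb stood at 0.37 and 0.41, Jund at 0.31 and 0.34, Junb-i at 0.99 and 0.95 and Junb-r at 0.50 and 0.62. Jun varied least relative to other probe sets in untreated mice, at 0.22, above 12.5% of all. The medians over all probe sets were 0.35 and 0.33. For Fos the untreated spread was not the same in each genotype, the SD being 0.38 for wild-type, 1.11 for alpha7 +/T and 0.72 for beta4 null mice. After seizure it was 0.32, 0.26 and 0.27 in the same order, so wild-type mice changed little. The untreated groups also held mice of 6 weeks and the seized groups did not, and the part of age was not tested. The difference in spread was not tested.

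Whether the members moved together in the same mouse was examined after the mean of each group was removed, over 28 mice. Of 45 pairs of member probe sets, 1 passed the test, the 2 probe sets of Junb (Pearson r = 0.71, permutation p = 9e-05, adjusted over the 45 pairs p = 0.0041; Spearman rho = 0.72, permutation p = 0.0001, adjusted p = 0.0045). Leaving out the 2 mice farthest from the median gave 0.69. It was 0.54 in the high-ratio arrays (permutation p = 0.041, adjusted p = 0.59) and 0.91 in the 9 low-ratio arrays (permutation p = 0.021), 0.71 among untreated mice and 0.73 among seized mice. This pair is the same transcript measured at 2 places on the array. The 2 tested probe sets of Atf3, Atf3-f and Atf3-r, had r = 0.11 (permutation p = 0.63, adjusted p = 0.79). In the high-ratio arrays r was -0.17 for these Atf3 probe sets, so they did not move together within mice.

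Between different genes 0 pairs passed. Jund and Atf3-r came nearest, with r = -0.62 (permutation p = 0.0025, adjusted p = 0.056; rho = -0.56, permutation p = 0.010, adjusted p = 0.13), and -0.35 when array kind was removed as well. Fosb and Junb-i had r = 0.55 (permutation p = 0.0079, adjusted p = 0.12; rho = 0.53, permutation p = 0.011, adjusted p = 0.13), which was 0.46 without the 2 farthest mice. Fosb and Junb-r had r = 0.47 (permutation p = 0.026, adjusted p = 0.29; rho = 0.34, permutation p = 0.11, adjusted p = 0.45), which was 0.28 without them. For Fos, r was 0.23 with Fosb, 0.36 with Junb-r, 0.37 with Atf3-f, 0.24 with Jun, 0.43 with Jund and -0.30 with Atf3-r. Without the 2 farthest mice these became 0.61 with Fosb, 0.35 with Junb-r, 0.53 with Atf3-f, 0.19 with Jun, 0.19 with Jund and -0.057 with Atf3-r, so those for Fosb, Atf3-f, Jund and Atf3-r moved with those mice. Of the 28 pairs among the 8 tested probe sets, 22 had r above 0, with a median of 0.22. In the high-ratio arrays alone 1 pair passed, Junb-r with Atf3-d (r = 0.83, permutation p = 0.00052, adjusted p = 0.023), a probe set below the array median in every mouse.

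**Figure D4:**
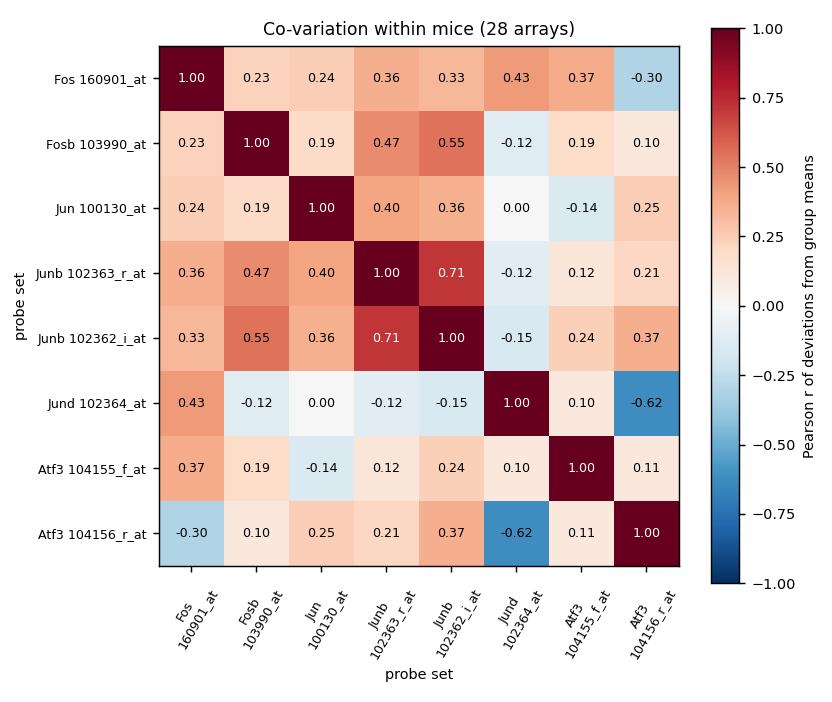
Pearson correlation between the 8 tested AP-1 probe sets over 28 mice, after removal of the mean of each genotype and treatment group. The 2 Junb probe sets correlate at 0.71, and Jund with Atf3-r at -0.62.

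The 3 genes most like each member were taken by Pearson r over all 28 arrays, among 6653 other probe sets with a single gene. These correlations share arrays, groups and array kind and are given as descriptions. For Fos they were Nr4a1 (r = 0.92), Egr2, a zinc finger early-response factor (0.84), and Dusp1, a phosphatase that turns off MAP kinases (0.82), with r of 0.69, 0.58 and 0.78 once group means were removed. For Fosb they were Nr4a1 (0.78), Ptgs2, the inducible prostaglandin synthase (0.77), and Egr2 (0.73). Once group means were removed these were 0.45, 0.64 and 0.36. For Atf3-f they were Nr4a1 (0.77), Egr2 (0.72) and Btg2, an antiproliferative early gene (0.71), and 0.46, 0.32 and 0.53 without group means. Junb-r was most like Dusp6, a phosphatase of ERK (0.80), Pim3 (0.73) and Acvr2b (0.73), with 0.75, 0.64 and 0.49 once group means were removed. Jun was most like Zap70 (0.65), Tdrp (0.62) and Ccn2 (0.61), with 0.60, 0.63 and 0.50 once group means were removed. Jund was most like S100a6 (0.87), Nop10 (0.86) and Vps54 (0.86), with 0.90, 0.87 and 0.82 once group means were removed and 0.82, 0.67 and 0.76 in the high-ratio arrays alone.

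The rest of the AP-1 system showed no call over the average of genotypes. Of 12 genes that can pair with Fos or Jun proteins, 6 were tested, 0 rose or fell by limma, and 0 had an unadjusted p under 0.05. The median was 0.085 and the 4 with the smallest p were Mafg (-0.26), Mafk (0.23), Maf (-0.28) and Atf2 (0.097), with limma adjusted p from 0.59 to 0.90. Of 24 other leucine zipper factors, 17 were tested and 0 were called, 4 with an unadjusted p under 0.05 and a median of 0.0060. Cebpb, a factor of inflammation and metabolism, stood at 0.55 ± 0.14 (limma adjusted p = 0.11), its relative Cebpd at 0.43 ± 0.12 (limma adjusted p = 0.17), Atf6b, a sensor of protein folding stress, at -0.26, and Nfil3, a repressor in the circadian system, at 0.34. With array kind as a covariate 2 of the 17 were called, Cebpb and Cebpd.

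Of 29 genes for kinases and factors upstream of AP-1, 16 were tested, 0 were called and 3 had an unadjusted p under 0.05. The nearest were Cops5, a coactivator of Jun (0.27 ± 0.082, limma adjusted p = 0.24), Fbxw7, which marks Jun for degradation (0.19), Camk2b, a calcium-dependent kinase (-0.15), and Mapk14, the p38 kinase (-0.14). Of 20 genes described as AP-1 targets, 12 were tested, 0 were called and 0 had an unadjusted p under 0.05, with a median of 0.056. Cck, the neuropeptide cholecystokinin, stood at -0.19, Gfap, the filament of astrocytes, at 0.15, Hmox1, heme oxygenase, at -0.11, and Vip, a neuropeptide, at 0.14. At 1 hour after seizure these values describe transcripts only, and AP-1 protein was not measured.

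Within genotypes, 0 genes of these 4 lists were called in wild-type and beta4 null mice. In alpha7 +/T mice 3 of 51 tested (5.88%) were, against 2.8% of all probe sets in either direction, and they are named after their values were seen. Nfe2l2, the oxidative stress factor NRF2, rose by 0.64 ± 0.15 (limma adjusted p = 0.020) and Cops5 by 0.52 ± 0.13 (limma adjusted p = 0.031), and Cck fell (-0.65 ± 0.18, limma adjusted p = 0.045). All 3 lost their call under median centring, in the high-ratio arrays alone, in LT mice alone, with age as a covariate and in mice of 7 weeks or older, where Cck stood at 0.13. The call of Cck also ended under quantile normalization, with no filter, with no variance trend, and in 21 of the 28 cases with a mouse left out. That of Cops5 ended in 5 of the 28 and that of Nfe2l2 in 1.

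Between alpha7 +/T and wild-type mice before seizure 8 of the 51 (15.7%) were called, against the 16% of all probe sets, and they are likewise named after their values were seen. Among the dimer partners Batf3, a factor of immune cells, was higher (0.75) and Atf2, a partner of Jun, lower (-0.63). Among the other leucine zipper factors Atf4, the factor of the integrated stress response, was higher (0.79) and Nfe2l2 lower (-0.52). Upstream, the kinase Map3k1 (-1.09) and Cops5 (-0.45) were lower. Of the targets, Ccnd1, the cell cycle protein cyclin D1, (0.91) and Hmox1 (0.50) were higher. Limma adjusted p ran from 0.0025 to 0.037. None of the 8 was called in high-ratio arrays, in mice of 7 weeks or older or in LT mice alone. Nfe2l2 and Cops5 also appear in the seizure comparison of alpha7 +/T mice, which shares the untreated alpha7 +/T mice with this one.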

How the data were processed

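Each of 28 U74Av2 arrays carried the whole-brain RNA of a single mouse. The authors deposited 1 signal intensity per probe set, made with MAS5 per the submitters' processing notes (version not given in the sources used here). The 2% trimmed mean of the deposited intensity was 150.1 on every array, so scaling was kept, and log2 of the intensity was used. Of 12488 probe sets, 66 controls were left out. Of the other 12422, 10833 had 1 gene symbol, 396 several and 1193 none in the platform annotation.

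Groups came from the labels. A probe set was kept when above its own array's median in at least 3 arrays. Group means of all 28 arrays were fitted with limma 3.58.1 (R 4.3.3; lmFit, eBayes with a variance trend). Tests were two-sided, with Benjamini-Hochberg adjustment over the 7350 kept, and a call is an adjusted p under 0.05. The test was checked on simulated data. Correlations used 100000 permutations within groups (SciPy 1.17.1). Replicate numbers follow accession order and pair nothing, and the labels do not say whether mice shared litters or days. The number of arrays limits precision. Rank correlations between arrays of a group were 0.907 to 0.972, and 0 pairs were identical.

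The members and gene lists were chosen with earlier results of these data known. All member probe sets are named, with the 3 genes most like each member and, from each list, the 4 with the smallest p. In comparisons of genotypes other than the untreated alpha7 +/T one, the members given values were chosen after their values were seen. Alternatives were the scaling, filter, floor, variance model, age, sex, array class, title prefix, subsets of mice and each mouse left out.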

Additional observations from a re-analysis of the deposited data

Results flagged for a closer look

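Jund, the AP-1 subunit of resting cells, had a mouse apart from its group after seizure. Beta4 null mouse 4 stood at log2 12.01, the highest of the 4 seized beta4 null mice, and the next was at 11.53. The gap was 0.84 of the range of the group. Over the 40 groups of 4 to 6 mice that were examined, 1 such value was found, and chance gives about 1 in 20 groups.

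The seizure difference of Jund went opposite ways in wild-type and beta4 null mice. All 3 seized wild-type mice lay below their untreated mean and all 4 seized beta4 null mice lay above theirs. The difference between the genotypes was log2 0.36 ± 0.30 (SE, limma adjusted p = 1.00), and the interaction over the 3 genotypes had a limma adjusted p of 0.83, so it did not pass the test.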

How the results depend on the processing

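Over 94 single values, 3777 alternative values were computed. Of these 3535 kept direction and side of the threshold, 186 were no longer past it, 28 were newly past it and 28 changed sign. The average over genotypes called 4 of 8 member probe sets, 3 to 5 under the alternatives and 4 to 5 with a mouse left out. The wild-type count of 2 became 4 in high-ratio arrays, 0 in mice of 7 weeks or older and within either title prefix, and 0 to 3 with a mouse left out. The alpha7 +/T count of 3 became 1 with age as a covariate and in LT mice alone, 5 with array class, 0 in high-ratio arrays, in mice of 7 weeks or older and with only the groups compared, and 2 to 3 with a mouse left out. The untreated alpha7 +/T count of 2 became 1 with no filter, with array class or with only the groups compared, 0 with age or title prefix, in high-ratio arrays, in LT mice alone and in mice of 7 weeks or older, and 0 to 3 with a mouse left out. Of the other leucine zipper factors array class as a covariate gave 2 calls in place of 0. The count of 1 correlated pair became 0 when array class was removed and in untreated or seized mice alone, and 1 to 3 with a mouse left out. In high-ratio arrays the count stayed at 1, but the Junb pair did not pass there. The pair that passed in its place was Junb-r with Atf3-d. Groups that did not overlap, Atf3-r in wild-type mice among them, numbered 9, 11 under quantile normalization or median centring, and 9 to 11 with a mouse left out. The median untreated spread was 0.50, from 0.44 to 0.48 under the alternatives and 0.47 to 0.52 with a mouse left out.

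Of the 28 sign changes, 12 were in mice of 7 weeks or older. There the average was -0.044 for Jund, 0.051 for Mafg, -0.24 for Atf2 and 0.15 for Cck, and the alpha7 +/T difference 0.035 for Jun, -0.15 for Jund and 0.13 for Cck. Jun in wild-type mice was 0.14 there. Untreated alpha7 +/T against wild-type mice gave 0.38 for Fos, -0.33 for Fosb, -0.035 for Atf3-r and 0.040 for Atf2. With age as a covariate Jun was 0.013 in wild-type (0.051 with title prefix and 0.21 in LT mice alone) and 0.022 in alpha7 +/T mice, and Atf2 was -0.0017. Hmox1 was 0.0042 in high-ratio arrays. Junb-i in seized alpha7 +/T against wild-type mice was -0.28 with array class, -0.22 in high-ratio arrays and -0.86 in LT mice alone, with 1 seized wild-type mouse. With a mouse left out it ran from -0.19 to 1.04, its untreated difference from -0.46 to 0.15, and Jun in wild-type mice from -0.20 to 0.13. The cause was not tested. The alternatives on gene lists, title prefix and groups that do not overlap were chosen after seeing the data. No paired analysis was possible because the labels give no replicate numbers. The title prefix, shared by mutants and part of the wild-type mice, was used as a covariate instead.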
